A study of Mus musculus with 6 samples.

Results

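The semaphorins with their plexin and neuropilin receptors, and the ephrins with their Eph receptors, were followed in osteoblasts (OBs) of BMP-2-induced ectopic bone. These guidance genes were taken by gene symbol from the deposited values, and 53 of the 23284 genes listed belong to them. They comprise 20 semaphorins, 9 plexins, 2 neuropilins, 8 ephrins and 14 Eph receptors. All 53 were listed in each of the 6 samples.

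The samples are ECFP+ cells sorted from implants of adult male *Col2.3*-ECFP mice, in which cells with an active type I collagen promoter, chiefly OBs, make a cyan fluorescent protein. Each mouse carried a collagen sponge loaded with recombinant human BMP-2 under the skin of the back, and no sample without BMP-2 was analysed here. The groups were 3 samples of day 10 and 3 of day 14 after the implant was placed, a time in which the study saw the OBs lose their spindle shape. Day 10 bone went through 1 digestion with 0.2% collagenase and day 14 bone through 2, which means that effects of digestion and day cannot be told apart. CD45+ and dead cells were gated out. The labels call the samples biological replicates but do not tie them to single mice. The p-values therefore weigh the difference between the days against the spread between these samples. The titles place the later group on day 14, while the free-text descriptions give day 14, 15 and 16 for its replicates 1, 2 and 3.

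Semaphorins are secreted or membrane-bound ligands that bind plexins, and the secreted class 3 members mostly need a neuropilin as co-receptor. Ephrins are cell-bound ligands: ephrin-A proteins hang on a lipid anchor and ephrin-B proteins cross the membrane. Eph receptors are tyrosine kinases, and signals can run into both of the touching cells. In bone, *Sema3a* from OBs is known to restrain osteoclasts, *Sema4d* from osteoclasts to restrain OBs through *Plxnb1*, and ephrin-B2 with EphB4 and ephrin-A2 with EphA2 to couple osteoclasts and OBs.

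Expression was given as FPKM, a read count scaled by transcript length and by the size of the library, so that levels can be compared between genes. The mapped reads, estimated from the steps between low FPKM values, ran from 4526039 to 7743449 per sample, and 3 reads on 1000 bases then correspond to 0.387 to 0.663 FPKM (counting error only). For 13 of the 53 genes the median over the samples was under 10 estimated reads. Of the 11 OB marker genes examined, 10 were above 1 FPKM in all samples, with *Col1a1* at 14151 FPKM or more. The exception was *Dlx5*, at 0.979 FPKM in replicate 1 of day 14. So were 7 of 10 chondrocyte, 4 of 6 osteocyte, 5 of 9 myeloid and 3 of 8 osteoclast markers. This count therefore does not single out OBs. Endothelial markers were low, with none of 12 above 1 FPKM in all samples and *Cdh5* at 0.752 FPKM or less. Their summed level was nevertheless 2.29 to 4.41 FPKM on day 10 and 6.30 to 11.1 FPKM on day 14. Summed pericyte and smooth muscle markers went from 77.8 to 85.8 FPKM on day 10 to between 113 and 122 FPKM on day 14, mostly *Pdgfrb* (log2 fold change 0.88). Of this list *Cspg4* (-0.96), *Kcnj8* (-0.43) and *Myh11* (-0.15) had negative log2 fold changes, and the others had positive ones. The 8 osteoclast markers summed to 447 to 490 FPKM on day 10 and 628 to 676 FPKM on day 14, mostly *Ctsk*, while *Calcr* was at 0.338 FPKM or less. Of these markers only *Ctsk* (log2 fold change 0.53) and *Mmp9* (0.84) were higher on day 14. The others had negative values, from -0.05 for *Acp5* to -1.62 for *Oscar*. The 6 osteocyte markers summed to 261 to 1059 FPKM on day 10 and 200.0 to 528 FPKM on day 14. The summed T and B cell, nerve, skeletal muscle and keratinocyte markers overlapped between the days. Replicate 2 of day 14 stood apart from replicates 1 and 3 of that day. Its 10 chondrocyte markers summed to 2464 FPKM, against 234 and 173 FPKM in replicates 1 and 3 and 769 to 1595 FPKM on day 10. It also had the fewest myeloid transcripts, 25.4 FPKM summed over 9 genes against 376 and 792 FPKM in replicates 1 and 3 and 38.1 to 146 FPKM on day 10. In both sums replicates 1 and 3 also lay outside the day 10 range, so the sums do not tell which day 14 samples are typical. Results that rest on replicate 2 are therefore given with and without it. In sorted bulk samples, fewer cells of a type and less RNA per cell cannot be told apart.

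A few genes carried most of each family. *Sema3b* made up 54.3% to 81.4% of the class 3 semaphorin FPKM, *Nrp2* 43.6% to 87.1% of the neuropilin FPKM and *Plxnb2* 88.2% to 98.0% of the plexin B FPKM. *Efna1* held 67.1% to 83.4% of the ephrin-A FPKM and *Efnb1* 49.0% to 80.7% of the ephrin-B FPKM. Among the Eph receptors *Epha3* was the highest, with 44.9% to 89.0% of the EphA FPKM, whereas *Ephb3* had 41.0% to 45.7% of the EphB FPKM and *Ephb4* came close behind it. Per sample, the 20 semaphorins summed to 92.0 to 147 FPKM, the 2 neuropilins to 37.3 to 91.3 FPKM and the 9 plexins to 56.9 to 72.7 FPKM. The 8 ephrins summed to 31.9 to 66.0 FPKM and the 14 Eph receptors to 42.9 to 70.3 FPKM. By the mean of all 6 samples, the order from the top was *Sema3b*, *Nrp2*, *Plxnb2*, *Epha3*, *Efna1*, *Efnb1* and *Nrp1*, where *Efnb1* and *Nrp1* were nearly level at 16.9 and 16.8 FPKM. On day 14 alone, *Nrp1* (20.9 FPKM) and *Sema3c* (16.7 FPKM) were above *Efna1* (16.0 FPKM) and *Efnb1* (14.7 FPKM).

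**Figure D1:**
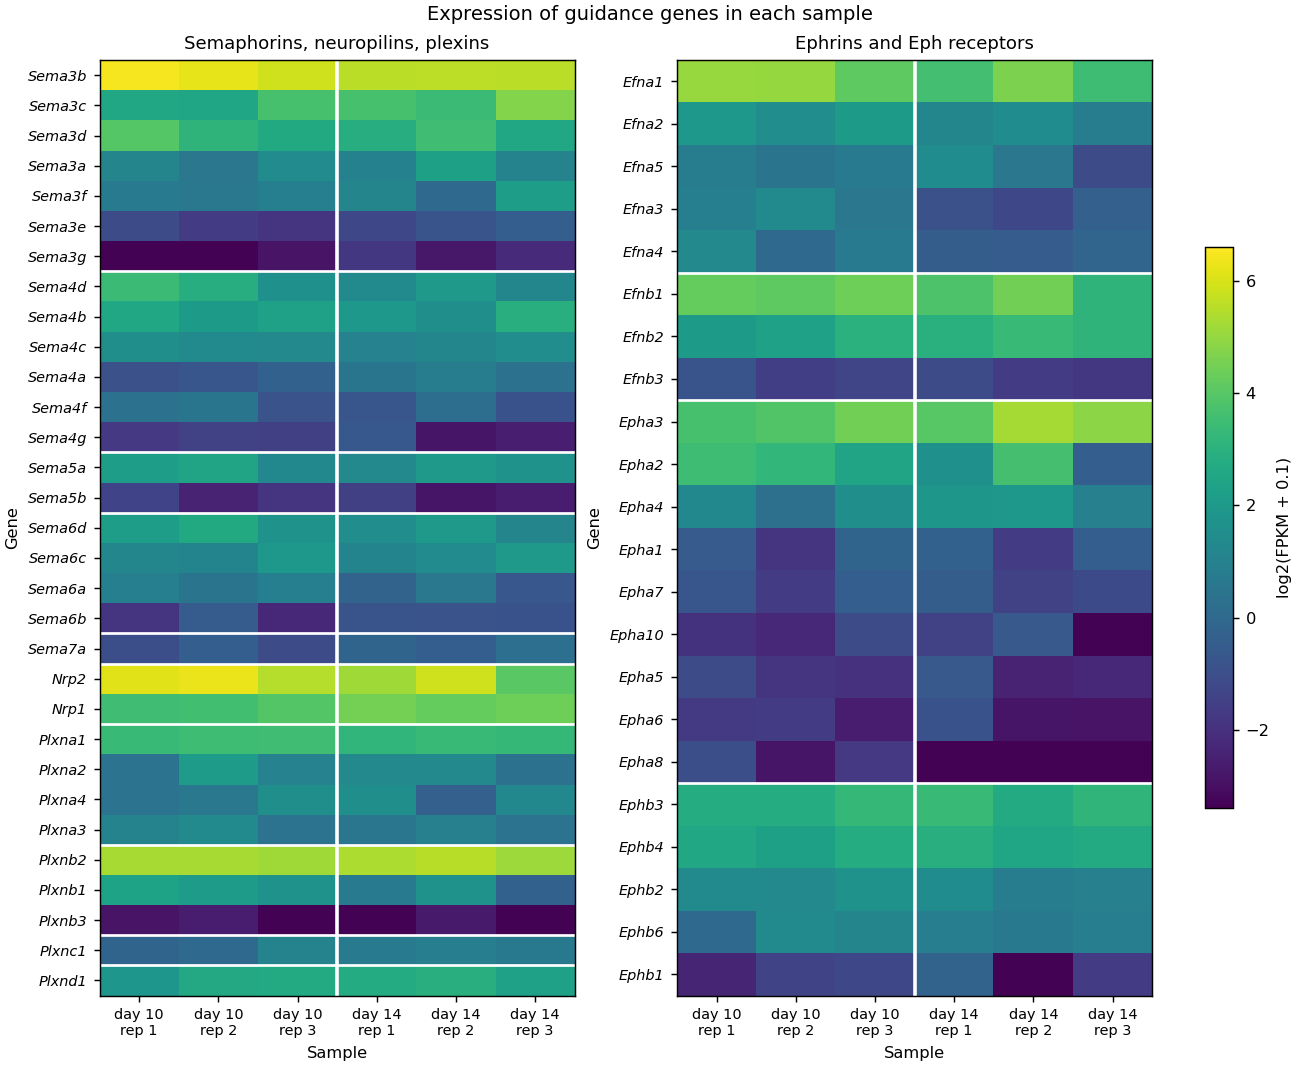
Levels of the 53 guidance genes in each sample, as log2(FPKM + 0.1), with genes grouped by family (white lines) and ordered by their mean. *Sema3b*, *Nrp2*, *Plxnb2*, *Efna1* and *Epha3* are bright in most columns, while genes such as *Plxnb3*, *Sema3g* and *Epha8* are dark throughout.

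To ask which guidance genes differed between earlier and later OBs, limma was run for day 14 against day 10 on log2(FPKM + 0.1). It covered the 19526 genes whose mean exceeded 0.1 FPKM. *Plxnb3* and *Sema3g* fell under this limit, leaving 51. After adjustment over the whole table none of the 51 had a p under 0.05 (0.0154% of all genes had one), and the smallest adjusted p from limma was 0.305, for *Nrp1* and *Efna3*. At an unadjusted p under 0.05, 4 genes were higher and 7 were lower on day 14. That is 7.84% of the 51 against 5.60% of all genes for the higher side, and 13.7% against 4.40% for the lower side. The median log2 fold change was -0.18 over the 51 genes and -0.04 over all genes tested. Over 2-fold, 2 genes were higher and 4 lower with such a p, where the shares over all genes were 1.79% and 2.04%. The days did not overlap for 3 genes that were higher (5.88%, against 7.59% of all genes) and 6 that were lower (11.8%, against 6.67%). Leaving out a sample moved these counts: 2 genes were higher and 11 lower without replicate 2 of day 14, where 7.01% and 5.99% of all genes were. In that comparison too none of the 51 passed after adjustment, against 0.386% of all genes. Without replicate 1 of day 10, 1 was higher and 2 were lower (3.0% and 1.84% of all genes), and without replicate 2 of day 10 the counts were 2 and 4 (4.50% and 3.01%). Without replicate 1 of day 14, 4 were higher and 2 lower (5.44% and 8.17%), and without replicate 3 of day 14 there were 2 of each (4.02% and 2.98%). *Nrp1*, *Efna3* and *Sema3b* kept an unadjusted p under 0.05 in each of 14 other settings of processing or samples.

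**Figure D2:**
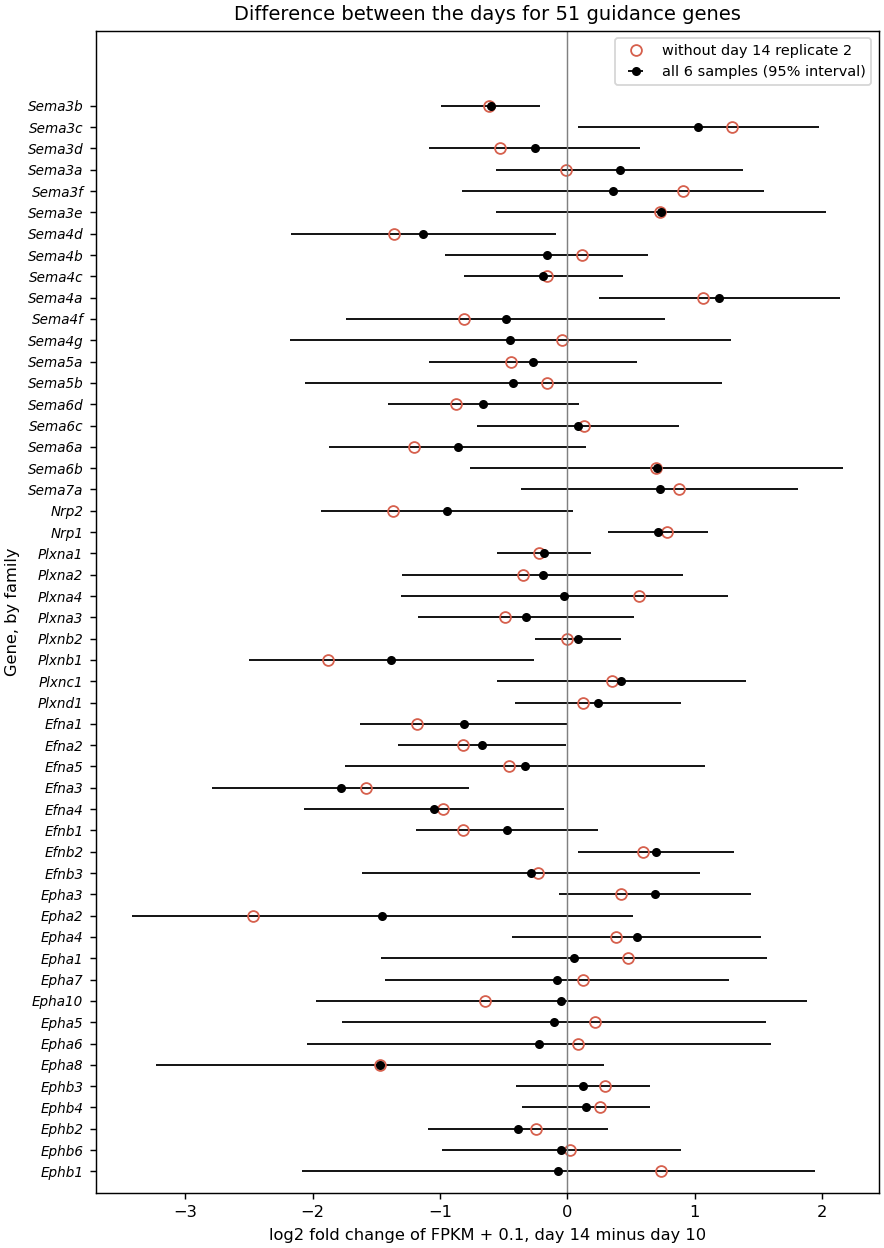
Log2 fold change of FPKM + 0.1 (day 14 minus day 10) for the 51 guidance genes tested, by family, with 95% intervals from limma (black) and the value without replicate 2 of day 14 (open circles). *Nrp1* and *Sema3b* have narrow intervals away from 0, while leaving out that sample moves *Epha2* from -1.45 to -2.47.

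Of the 5 ephrin-A ligands, 4 were lower on day 14 at an unadjusted p under 0.05, where 4.40% of all genes were. Without replicate 1 of day 10, without replicate 1 of day 14 or without replicate 3 of day 14, only 1 of the 5 was. All 5 had a negative log2 fold change, as did all 4 plexin A genes and both class 5 semaphorins, where 53.5% of all genes tested had one. The ephrin-A median was -0.81 against -0.04 over all genes tested. The plexin A median was -0.19 and the class 5 median -0.35, with no gene of either at an unadjusted p under 0.05 from limma. Ephrin-A proteins bind mainly EphA receptors on a neighbouring cell. *Efna1*, the most abundant, had 33.2, 32.1 and 17.3 FPKM on day 10 and 12.2, 24.8 and 11.1 FPKM on day 14. Replicates 1 and 3 of day 14 lay below all of day 10, and replicate 2 lay inside its range. The log2 fold change was -0.81 (standard error 0.35, unadjusted p = 0.0493, adjusted p = 0.497 from limma), and without replicate 2 of day 14 it was -1.18 (adjusted p = 0.142 from limma). Without replicate 3 of day 14 it was -0.60 with an unadjusted p of 0.156 from limma.

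*Efna3* had 1.81, 2.5 and 1.39 FPKM on day 10 and 0.430, 0.331 and 0.695 FPKM on day 14. Here the days did not overlap, and replicate 2 of day 14 was the lowest sample. Its log2 fold change of -1.78 (standard error 0.44, unadjusted p = 0.00342, adjusted p = 0.305 from limma) was the largest in size of all 51 genes, but it rests on a median of 14.7 estimated reads. *Efna4* had 2.35, 0.916 and 1.57 FPKM on day 10 and 0.630, 0.607 and 0.815 FPKM on day 14. The days did not overlap, at a median of 7.4 estimated reads, with a log2 fold change of -1.05 (standard error 0.45, unadjusted p = 0.0461, adjusted p = 0.492 from limma). Without replicate 2 of day 14 the *Efna4* value was -0.98 with an unadjusted p of 0.0899 from limma. Exons of *Efna3* and *Efna4* overlap antisense genes (*Gm15998* and *4731419I09Rik*), and since no strand is given for the counting, the reads of each pair cannot be told apart. In all, 14 of the 53 genes share exon positions with another annotated gene, and *Plxnb1* (*Gm7628*), *Plxna1* (*Gm26811*) and *Ephb4* (*Zan*) do so on the opposite strand as well.

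*Efna2*, which osteoclasts are also known to make, had 3.71, 2.74 and 4.0 FPKM on day 10 and 2.16, 2.63 and 1.69 FPKM on day 14. The samples of the days lay side by side without overlap, 2.74 against 2.63 FPKM at the border, and the log2 fold change was -0.67 (standard error 0.29, unadjusted p = 0.0483, adjusted p = 0.496 from limma). *Efna5*, the remaining ligand, ranged from 0.370 to 2.69 FPKM, with both ends on day 14. For *Efna2*, *Efna3* and *Efna4* the two-sided exact permutation test gave p = 0.1, the smallest that 3 samples against 3 allow, and for *Efna1* it gave p = 0.2.

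*Efna1*, *Efna3* and *Efna4* are neighbours on the minus strand of chromosome 3 in mm10 (GENCODE vM21), within 66.3 kb. *Efna1* lies from 89271733 to 89281142, *Efna3* from 89313899 to 89322965 and *Efna4* from 89333390 to 89338028, and all are protein-coding. *Efna2* is on chromosome 10 (80179482 to 80190010). This cluster was looked at after its values were seen. Of the 19 other protein-coding genes tested within 100000 bases on either side, 9 had a negative and 10 a positive log2 fold change, with a median of 0.04. At an unadjusted p under 0.05, 3 of the 19 were lower, namely *Scamp3* (-0.49), *Dpm3* (-0.39) and *Pygo2* (-0.55), where 4.40% of all genes were. Another 2 were higher, *Slc50a1* (0.34) and *Pbxip1* (0.45), where 5.60% of all genes were. *Adam15*, the next gene after *Efna4*, had a log2 fold change of 0.12 (standard error 0.16), and *Slc50a1*, next to *Efna1* on the other side, had 0.34 (standard error 0.15). The 3 ephrin-A genes had the lowest fold changes of the stretch.

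**Figure D3:**
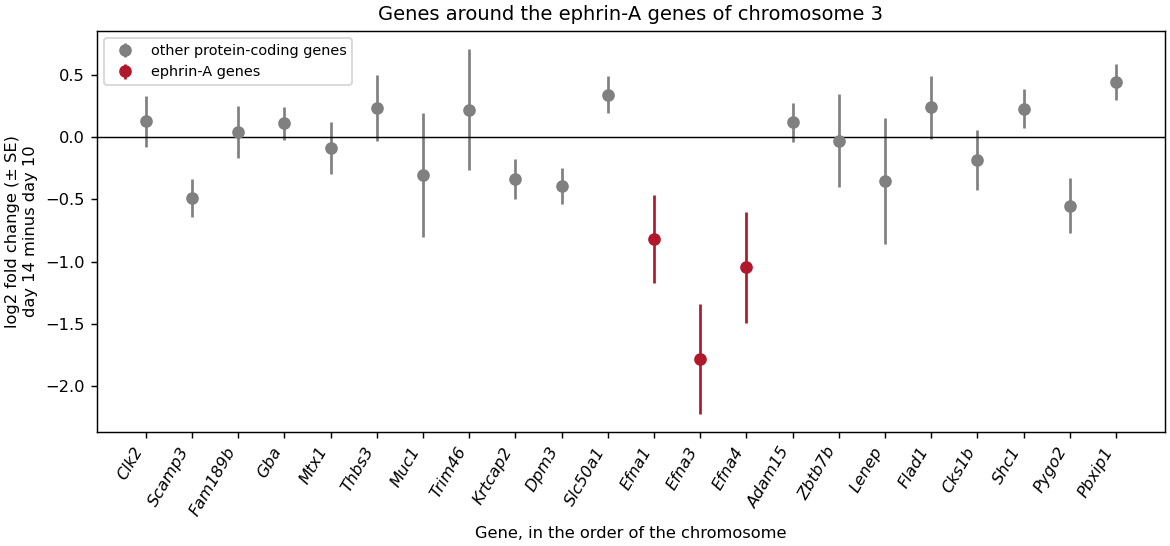
Log2 fold change (day 14 minus day 10, with standard errors from limma) of 22 protein-coding genes around the ephrin-A genes of chromosome 3, in their order on the chromosome. *Efna1*, *Efna3* and *Efna4* (red) lie at -0.81, -1.78 and -1.05, while the flanking genes (grey) lie on both sides of 0.

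The promoters of the neighbouring ephrin-A genes, whose mean levels were lower on day 14, and that of *Nrp1*, whose mean was higher, are shown as the 250 bases before a RefSeq start (GRCm38.p6). *Efna1* and *Efna3* have 2 such starts each, and the upstream one is shown. The *Nrp1* window lies within the GENCODE bounds of the gene, which begin further upstream. Those of *Efna1* and *Efna3* lie partly within the GENCODE bounds of their genes, and that of *Efna4* lies outside. Capitals mark 2 motifs searched on both strands: TGTGGT, the core that RUNX factors recognise, and GGGCGG, the GC box of SP family factors. Windows are *Efna1* chr3:89280952-89281201 (minus strand), *Efna3* chr3:89322940-89323189 (minus strand), *Efna4* chr3:89338029-89338278 (minus strand) and *Nrp1* chr8:128358823-128359072 (plus strand).
Efna1: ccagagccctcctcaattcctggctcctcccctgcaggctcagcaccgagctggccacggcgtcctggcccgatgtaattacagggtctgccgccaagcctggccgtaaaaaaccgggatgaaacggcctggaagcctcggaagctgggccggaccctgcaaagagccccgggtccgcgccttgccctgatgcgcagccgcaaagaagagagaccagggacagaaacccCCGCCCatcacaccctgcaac
Efna3: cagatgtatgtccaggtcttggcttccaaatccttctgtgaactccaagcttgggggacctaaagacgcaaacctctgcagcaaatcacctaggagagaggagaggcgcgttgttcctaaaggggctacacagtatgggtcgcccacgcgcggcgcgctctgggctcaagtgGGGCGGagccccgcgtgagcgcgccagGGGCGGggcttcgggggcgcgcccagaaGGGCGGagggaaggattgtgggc
Efna4: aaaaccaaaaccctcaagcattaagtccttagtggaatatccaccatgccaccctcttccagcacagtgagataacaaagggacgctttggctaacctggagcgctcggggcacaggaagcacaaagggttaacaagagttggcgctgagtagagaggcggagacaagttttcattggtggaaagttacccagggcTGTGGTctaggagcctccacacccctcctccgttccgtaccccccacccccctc
Nrp1: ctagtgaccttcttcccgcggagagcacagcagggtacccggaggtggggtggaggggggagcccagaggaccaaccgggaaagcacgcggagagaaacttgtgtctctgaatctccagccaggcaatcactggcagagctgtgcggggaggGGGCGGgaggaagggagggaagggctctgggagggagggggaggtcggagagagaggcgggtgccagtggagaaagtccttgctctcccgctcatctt

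In these windows *Efna1* held 1 GC box, *Efna3* 3 and *Nrp1* 1, while *Efna4* held none and had 1 RUNX core. At the other start, the *Efna1* window held 2 GC boxes, and that of *Efna3* held 3 GC boxes and 1 RUNX core. GC content was 64.8% for *Efna1*, 63.6% for *Efna3*, 54.4% for *Efna4* and 64.4% for *Nrp1*. Promoter windows were found for 47 of the 53 guidance genes, 61 windows in all. The RUNX core stood in 13.1% of them against 14.0% of all 32851 windows, and the GC box in 75.4% against 32.7%. Their median GC content was 64.4%, against 52.4% over all windows. A match describes these letters only and is not a binding site.

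The ephrin-B ligands had fold changes in both directions. *Efnb2*, the ligand of EphB4, had 4.02, 4.95 and 7.77 FPKM on day 10 and 7.71, 10.2 and 8.60 FPKM on day 14. Only day 10 replicate 3 reached into the day 14 range, and the log2 fold change was 0.70 (standard error 0.27, unadjusted p = 0.0297, adjusted p = 0.438 from limma). Without replicate 2 of day 14, its highest sample, the log2 fold change was 0.59 with an unadjusted p of 0.0870 from limma. *Efnb1* had 18.8, 17.4 and 21.1 FPKM on day 10 and 13.8, 22.0 and 8.44 FPKM on day 14. Replicates 1 and 3 of day 14 were the lowest samples and replicate 2 the highest, so that the log2 fold change of -0.47 (adjusted p = 0.680 from limma) became -0.82 (adjusted p = 0.194 from limma) without replicate 2 and -0.13 without replicate 3. The ratio of *Efnb2* to *Efnb1* within a sample, which no scaling between samples can move, was 0.214, 0.284 and 0.369 on day 10 and 0.560, 0.465 and 1.02 on day 14. These ratios did not overlap between the days, and they were computed after the values were seen, so no test was made. The other ratios computed, of *Nrp2* to *Nrp1*, *Epha3* to *Epha2* and *Sema3c* to *Sema3b*, overlapped between the days. *Efnb2* is also an arterial endothelial gene, and the summed endothelial markers given above were higher on day 14, with *Pecam1* at 1.35 FPKM or less. Their part in the level of *Efnb2* was not tested. *Efnb3* stayed between 0.188 and 0.475 FPKM.

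None of the 14 Eph receptors had an unadjusted p under 0.05. Of them, 5 had a positive and 9 a negative log2 fold change, where 53.5% of all genes tested had a negative one. *Epha3*, the most abundant, had 12.9, 14.8 and 22.3 FPKM on day 10 and 16.1, 38.0 and 29.3 FPKM on day 14. Its 2 highest samples were of day 14, but the days overlapped (log2 fold change 0.69 by limma, with a standard error of 0.33 and an adjusted p of 0.541), and without replicate 2 of day 14 the value was 0.42. Without replicate 1 of day 14, *Epha3* had a value of 1.04 with an unadjusted p of 0.00788 from limma. *Epha2*, a receptor for ephrin-A ligands, had 11.3, 9.27 and 5.31 FPKM on day 10 and 2.94, 12.3 and 0.646 FPKM on day 14. Replicate 2 of day 14 was the highest sample of all, while the other day 14 samples were the lowest. The log2 fold change was -1.45 (limma, standard error 0.86 and adjusted p = 0.633), and -2.47 without replicate 2 (unadjusted p = 0.00311, adjusted p = 0.130 from limma). Without replicate 3 of day 14, the lowest sample, *Epha2* had a value of -0.44 with an unadjusted p of 0.473 from limma.

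The EphB receptors were more even. *Ephb4*, the receptor for ephrin-B2, had 5.78, 4.79 and 6.87 FPKM on day 10 and 7.35, 5.47 and 6.49 FPKM on day 14, with a log2 fold change of 0.15 (95% interval -0.35 to 0.65). *Ephb3* had 6.79, 6.87 and 9.35 FPKM on day 10 and 10.0, 6.50 and 8.66 FPKM on day 14, with a log2 fold change of 0.12 (95% interval -0.40 to 0.65). The intervals leave room for a change of either direction, but not for a 2-fold one. *Epha4* ranged from 1.13 to 3.69 FPKM, *Ephb2* from 1.62 to 3.26 FPKM and *Ephb6* from 0.919 to 2.45 FPKM, each with overlapping days. *Epha1*, *Epha5*, *Epha6*, *Epha7*, *Epha10* and *Ephb1* stayed below 1 FPKM in every sample. *Epha8* had 0.408, 0.0403 and 0.199 FPKM on day 10 and was listed at 0 in the 3 day 14 samples, at no more than 9.0 estimated reads.

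The neuropilins, co-receptors for class 3 semaphorins and for VEGF, had fold changes of opposite sign. *Nrp1* (chromosome 8, 128358604 to 128503363) had 11.5, 11.8 and 15.0 FPKM on day 10 and 22.8, 18.8 and 21.1 FPKM on day 14. All day 14 samples exceeded all day 10 samples, and the exact permutation p (two-sided) was 0.1, the smallest possible. The means were 12.8 ± 1.98 FPKM (SD, n = 3) and 20.9 ± 2.02 FPKM (SD, n = 3), a difference larger than the spread between replicates. Its log2 fold change was 0.71 (standard error 0.17, unadjusted p = 0.00296, adjusted p = 0.305 from limma), and 0.79 without replicate 2 of day 14. Endothelial cells express *Nrp1* too, and the endothelial markers given above summed higher on day 14, with *Pecam1* at 1.35 FPKM or less. The part of endothelial or pericyte RNA in the *Nrp1* difference was not tested.

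*Nrp2* (chromosome 1, 62703285 to 62818695) had 70.3, 79.5 and 44.5 FPKM on day 10 and 36.1, 59.2 and 16.3 FPKM on day 14. Day 14 replicates 1 and 3 were the lowest samples and replicate 2 lay inside the day 10 range. The log2 fold change was -0.94 (standard error 0.43, unadjusted p = 0.0589, adjusted p = 0.520 from limma), and -1.37 without replicate 2 (unadjusted p = 0.00587, adjusted p = 0.163 from limma). Without replicate 3 of day 14, *Nrp2* had a value of -0.44 with an unadjusted p of 0.189 from limma. In mean FPKM on day 10, *Nrp2* ranked 880 and *Nrp1* 3796 of the 23284 genes, and on day 14 they ranked 1614 and 2676. The ratio of *Nrp2* to *Nrp1* was 6.11, 6.76 and 2.96 on day 10 and 1.58, 3.14 and 0.772 on day 14. In day 14 replicate 3 alone *Nrp1* was the higher of the 2, and the ratios of the days overlapped.

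Among the secreted class 3 semaphorins, *Sema3b* (chromosome 9, 107597674 to 107609229) had 86.9, 75.1 and 58.7 FPKM on day 10 and 47.7, 48.6 and 47.3 FPKM on day 14. The day 14 samples lay close together and below all of day 10. The means were 73.6 ± 14.2 FPKM (SD, n = 3) and 47.9 ± 0.665 FPKM (SD, n = 3), with a log2 fold change of -0.60. Its standard error was 0.17, and limma gave an unadjusted p of 0.00725 and an adjusted p of 0.333, while without replicate 2 of day 14 the log2 fold change was -0.61.

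*Sema3c*, which can bind both neuropilins, had 5.76, 5.66 and 12.9 FPKM on day 10 and 12.9, 10.6 and 26.6 FPKM on day 14. Day 10 replicate 3 overlapped with day 14, and the log2 fold change was 1.03 (standard error 0.41, unadjusted p = 0.0364, adjusted p = 0.461 from limma). Without day 14 replicate 3, the highest sample, it was 0.64 with an unadjusted p of 0.129 from limma. Without replicate 2 of day 14 it was 1.29 (unadjusted p = 0.0173, adjusted p = 0.247 from limma). *Sema3a*, the neuropilin-1 ligand known for its action on osteoclasts, had 2.13, 1.37 and 2.56 FPKM on day 10 and 1.90, 4.80 and 2.00 FPKM on day 14. Apart from replicate 2 of day 14 the samples lay in 1 range, and the log2 fold change of 0.41 (adjusted p = 0.816 from limma) was -0.01 without that sample. *Sema3d* ranged from 6.0 to 15.3 FPKM, *Sema3f* from 0.899 to 4.35 FPKM and *Sema3e* from 0.174 to 0.659 FPKM, each with overlapping days. *Sema3g* was at 0.189 FPKM or less.

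In the membrane-bound class 4, *Sema4d* (chromosome 13, 51685529 to 51793747) had 10.7, 7.10 and 2.95 FPKM on day 10 and 2.46, 3.80 and 2.17 FPKM on day 14. Day 10 replicate 3 lay among the day 14 samples, and the log2 fold change was -1.13 (standard error 0.45, unadjusted p = 0.0362, adjusted p = 0.460 from limma). Without day 10 replicate 1, the highest sample, it was -0.73 with an unadjusted p of 0.143 from limma. Without replicate 2 of day 14 it was -1.36 (unadjusted p = 0.0253, adjusted p = 0.287 from limma). *Sema4d* is best known from osteoclasts and lymphocytes. The osteoclast markers summed higher on day 14 through *Ctsk* and *Mmp9*, while the other markers of that list had negative log2 fold changes, as given above. The 8 T and B cell markers summed to 5.50 FPKM or less in every sample. The part of osteoclasts and lymphocytes in the level of *Sema4d* was not tested.

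*Sema4a*, a class 4 ligand also made by myeloid cells, had 0.431, 0.512 and 0.723 FPKM on day 10 and 1.31, 1.66 and 1.20 FPKM on day 14. The days did not overlap, and the log2 fold change was 1.20 (standard error 0.41, unadjusted p = 0.0191, adjusted p = 0.400 from limma), at a median of 17.2 estimated reads. The myeloid marker sum was above all of day 10 in replicates 1 and 3 of day 14 and below it in replicate 2, where *Sema4a* was highest, and its part in the level of *Sema4a* was not tested. Without replicate 2 the log2 fold change was 1.07 with an unadjusted p of 0.0631 from limma. *Sema4b* ranged from 2.93 to 7.45 FPKM, *Sema4c* from 1.94 to 2.89 FPKM and *Sema4f* from 0.448 to 1.32 FPKM, while *Sema4g* stayed at 0.534 FPKM or less. The days overlapped for each of these.

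**Figure D4:**
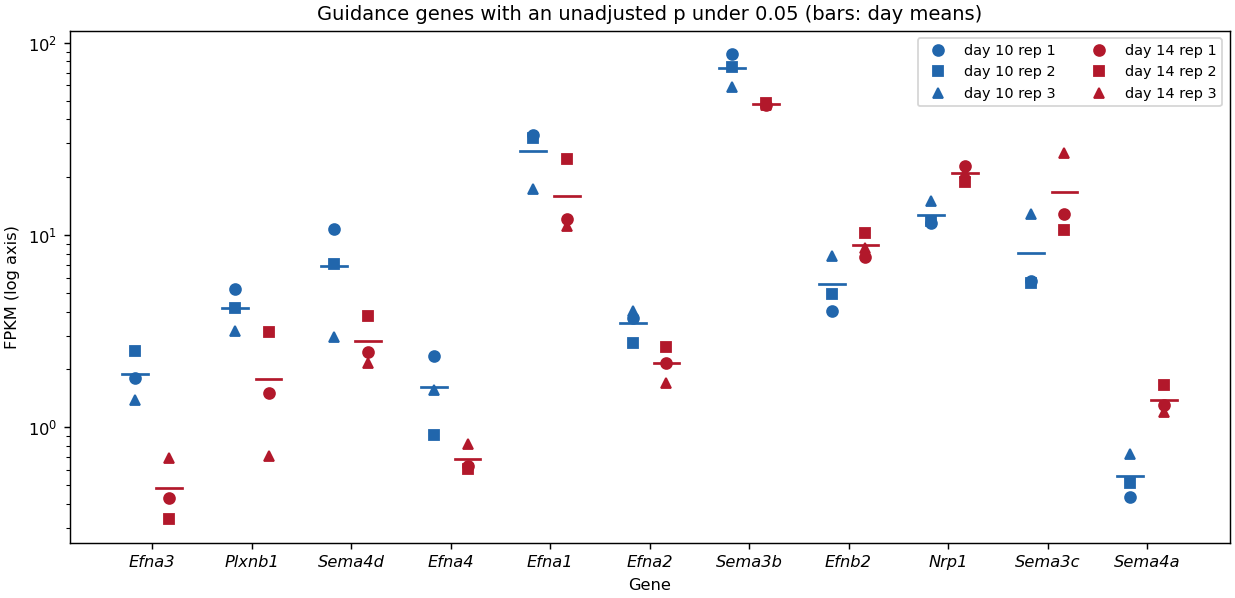
FPKM in each sample (log axis) for the 11 guidance genes with an unadjusted p under 0.05 from limma, ordered by fold change, with day 10 in blue, day 14 in red and bars at the day means. The day 14 samples of *Efna3*, *Plxnb1*, *Efna4*, *Efna2* and *Sema3b* lie below all of day 10, and those of *Nrp1* and *Sema4a* lie above.

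With all 6 samples, the transmembrane classes 5 and 6 had no gene with an unadjusted p under 0.05 from limma. Without replicate 2 of day 14, *Sema6a* and *Sema6d* had one. *Sema5a* had 4.44, 5.26 and 2.30 FPKM on day 10 and 2.37, 3.97 and 3.22 FPKM on day 14. *Sema6d* had 4.40, 6.28 and 3.27 FPKM on day 10 and 2.73, 3.84 and 2.11 FPKM on day 14. For *Sema6d*, the lowest samples were day 14 replicates 1 and 3. Its log2 fold change of -0.66 (adjusted p = 0.559 from limma) was -0.88 without replicate 2 (unadjusted p = 0.0331, adjusted p = 0.325 from limma). *Sema6a* ranged from 0.529 to 1.80 FPKM, also with its lowest values in day 14 replicates 1 and 3. Without replicate 2 its log2 fold change went from -0.86 to -1.21 (unadjusted p = 0.0252, adjusted p = 0.287 from limma). *Sema6c* ranged from 2.07 to 3.81 FPKM and *Sema6b* from 0.109 to 0.618 FPKM, while *Sema5b* stayed at 0.281 FPKM or less. *Sema7a*, a lipid-anchored ligand that acts through an integrin and *Plxnc1*, had 0.399, 0.651 and 0.376 FPKM on day 10 and 0.784, 0.659 and 1.11 FPKM on day 14. The days did not overlap, but only just, at a median of 11.0 estimated reads (log2 fold change 0.73 by limma, with a standard error of 0.48 and an adjusted p of 0.677).

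Of the plexins, only *Plxnb1* had an unadjusted p under 0.05. *Plxnb1* (chromosome 9, 109095389 to 109119917), the receptor of *Sema4d*, had 5.25, 4.16 and 3.16 FPKM on day 10 and 1.51, 3.13 and 0.708 FPKM on day 14. The days did not overlap, although replicate 2 of day 14 came close to the lowest day 10 sample. Its log2 fold change was -1.38 (standard error 0.49, unadjusted p = 0.0216, adjusted p = 0.407 from limma), and -1.88 without replicate 2 of day 14 (unadjusted p = 0.00183, adjusted p = 0.105 from limma). Leaving out replicate 1 or 2 of day 10, or replicate 1 or 3 of day 14, gave *Plxnb1* an unadjusted p between 0.0544 and 0.0754 from limma, and without replicate 3 of day 14 the log2 fold change was -0.88. Both *Sema4d* and its receptor thus had lower means on day 14, as did the OB marker genes, whose sum was 53862 to 101194 FPKM on day 10 and 39364 to 76769 FPKM on day 14. What part a lower share of OBs has in these values was not tested.

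*Plxnb2*, the most abundant plexin, had 39.4, 39.2 and 35.9 FPKM on day 10 and 40.9, 45.5 and 35.5 FPKM on day 14. Its log2 fold change of 0.08 (95% interval -0.26 to 0.43) had the smallest standard error of the 51 genes (0.15). *Plxna1*, a partner of the neuropilins, had 9.95, 11.2 and 11.4 FPKM on day 10 and 9.02, 10.1 and 9.61 FPKM on day 14, with a log2 fold change of -0.18 (95% interval -0.55 to 0.19). For both receptors the interval excludes a 2-fold change, unlike that of *Plxnb1*. *Plxnd1* had 3.56, 6.13 and 6.43 FPKM on day 10 and 6.62, 7.27 and 4.88 FPKM on day 14, and *Plxnc1* had 0.776, 0.903 and 2.03 FPKM on day 10 and 1.5, 1.72 and 1.45 FPKM on day 14. Both overlapped between the days. *Plxna2* ranged from 1.18 to 4.13 FPKM, *Plxna3* from 1.24 to 2.48 FPKM and *Plxna4* from 0.694 to 2.90 FPKM, while *Plxnb3* was at 0.0625 FPKM or less.

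Several of these genes shared a pattern over the samples. In 8 of the 51, replicates 1 and 3 of day 14 lay below all of day 10 while replicate 2 did not, namely *Efna1*, *Efnb1*, *Epha2*, *Nrp2*, *Plxna1*, *Sema4d*, *Sema6a* and *Sema6d*. Over all genes tested, 6.59% had this pattern. The opposite pattern, with replicates 1 and 3 above all of day 10, was that of *Sema3c* and *Sema3f* (7.76% of all genes). In the same samples the summed chondrocyte and OB markers were likewise low in replicates 1 and 3 and high in replicate 2. Their part in the pattern was not tested. *Nrp1*, *Sema3b*, *Efna3*, *Efna4*, *Efna2*, *Plxnb1*, *Sema4a*, *Sema7a* and *Epha8* differed from these in that replicate 2 lay on the same side of day 10 as the other day 14 samples. They are the genes of the 51 whose days did not overlap, 3 higher and 6 lower (7.59% and 6.67% of all genes).

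Of 79 genes known to act with these ligands and receptors, 76 passed the filter, and none had an adjusted p under 0.05 from limma. At an unadjusted p under 0.05, 5 were higher and 10 lower on day 14 (5.60% and 4.40% of all genes), with a median log2 fold change of 0.01. By pathway, 3 higher and 4 lower came from 39 tested partners of semaphorins and plexins, and 2 higher and 6 lower from 37 tested partners of ephrins and Eph receptors. *Itga1*, an integrin chain of the *Sema7a* receptor, had 2.65, 4.78 and 4.69 FPKM on day 10 and 14.7, 11.1 and 8.23 FPKM on day 14. The days were well apart, with a log2 fold change of 1.47 (limma, standard error 0.30 and adjusted p = 0.292). The other higher partners were *Sdcbp* (log2 fold change 0.53), a PDZ adaptor that binds ephrin-B tails, *Rras* (0.78) and *Rap1b* (0.48), small GTPases that plexins act on, and the endocytic adaptor *Itsn1* (0.49).

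*Farp2*, an exchange factor that binds plexin A, had 38.0, 25.0 and 13.4 FPKM on day 10 and 7.62, 13.3 and 4.51 FPKM on day 14. Its days barely parted between day 10 replicate 3 and day 14 replicate 2, and the log2 fold change was -1.59 (limma, standard error 0.45 and adjusted p = 0.337). *Arhgef19*, an exchange factor of the ephexin family, had 23.1, 26.4 and 19.1 FPKM on day 10 and 9.6, 18.6 and 8.12 FPKM on day 14. Its log2 fold change was -0.99 (adjusted p = 0.356 from limma), and without replicate 2 of day 14 it was -1.35 with an adjusted p of 0.0485 from limma, the only partner to pass in that comparison. With the filter on low values taken over all 6 samples instead, no partner passed. Also lower were *Rgs3* (log2 fold change -0.79), which binds ephrin-B tails, the adaptor *Bcar1* (-0.44) and the Eph-linked exchange factor *Vav2* (-0.78). The remaining 5 lower partners had log2 fold changes between -1.75 and -0.40.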

How the data were processed

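RNA-seq values of ECFP+ OBs were analysed for 3 samples of day 10 and 3 of day 14. Per the labels and the paper's methods, cDNA was made with a low-input SMART-Seq kit, and the authors deposited FPKM per gene. Their processing notes name Cufflinks 2.2.1, TopHat2 2.0.13, SAMtools 0.1.19 and Bowtie2 2.2.3, with mm10 as the genome and reads of 75 bases from 1 end. The gene annotation and the handling of shared reads are not given in the sources used here. In 1 file 25 symbols had become dates and were restored by position. The comparison used limma 3.58.1 in R 4.3.3 (mean-variance trend) on log2(FPKM + 0.1), with a filter of a mean FPKM above 0.1, the day as the only factor and Benjamini-Hochberg adjustment over all genes tested. Fold changes are those of FPKM + 0.1 and understate the change of low genes. Depth was estimated from 1977 genes with 1 transcript (values up to 0.3 FPKM, fragment length 225). Between 75.3% and 80.1% of these values lay within 0.1 of a whole number of reads. Reads per gene assume the longest coding transcript and are approximate. Values in every sample are given for the highest gene of each family, genes with an unadjusted p under 0.05, genes of at least 1 FPKM whose days do not overlap, and 11 genes known from bone cell communication. Partner genes were named at an unadjusted p under 0.05, at most 5 in each direction. Genes and lists were chosen with earlier results of these data known. Where a sample was left out, the filter was taken over the samples kept. This was chosen after both ways had been seen, as were the chromosome 3 window, the promoters shown and the transcript length behind the estimated reads. The comparison was also run on simulated data, and no result above rests on that run. Promoter sequences are from RefSeq (GRCm38.p6).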

Additional observations from a re-analysis of the deposited data

How the results depend on the processing

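No guidance gene had an adjusted p under 0.05 from limma in any of 14 other settings, while the counts at an unadjusted p moved with the setting. Without the mean-variance trend, 2 genes were higher on day 14 (4 as reported) and 8 partner genes passed (15 as reported). The shares over all genes were then 3.70% higher and 3.17% lower, against 5.60% and 4.40% as reported. With a pseudocount of 1, 0 genes were over 2-fold with such a p (6 as reported). A larger pseudocount shrinks the fold changes of low genes by arithmetic: *Efna3* then had -0.95 with an unadjusted p of 0.0033 from limma. No shares over all genes are given for the over 2-fold counts of this paragraph, so they say nothing about guidance genes in particular. Leaving out 1 sample at a time gave 1 to 5 higher, 2 to 11 lower and 1 to 8 over 2-fold guidance genes, 4 to 18 partner genes, and 0 to 1 partner genes with an adjusted p under 0.05 from limma. Over all genes, 3.0% to 7.01% were then higher and 1.84% to 8.17% lower at an unadjusted p under 0.05. In an alternative added after seeing the data, replicate 2 of day 14 was left out with the filter taken over all 6 samples. The numbers of genes with an adjusted p under 0.05 were then 8 over all genes, 0 guidance genes and 0 partner genes, against 76, 0 and 1 with the filter over the samples kept, while 2 guidance genes were higher and 11 lower at an unadjusted p either way. The 11 genes with an unadjusted p under 0.05 kept their direction in every setting that gave a value, and in 47 values their p was 0.05 or more. *Efna1* and *Efna4* lost such a p in 9 of 14 settings each, *Efna2* in 8, *Efnb2*, *Sema3c* and *Sema4d* in 5, *Plxnb1* in 4 and *Sema4a* in 2 of 13. Among the other 40 genes the sign changed in 44 of 544 values. The replicate numbers are shared by both days, but the deviations of same-numbered samples correlated at only -0.00584 to 0.0887. With the replicate number as a block, 5 guidance genes were higher (6.15% of all genes), 8 lower (4.76% of all genes) and 6 over 2-fold at an unadjusted p under 0.05, together with 17 partner genes, and none passed after adjustment. Depth limits the 13 genes with a median under 10 estimated reads, among them *Efna4*.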
